A study of Mus musculus with 6 samples.

Results

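Probe sets for 8 genes that encode transcriptional repressors were examined in osteoclast precursors: Prdm1, which encodes Blimp1, Bcl6, Bach1, Bach2, Zeb1, Zeb2, Zbtb46 and Bcor. Every probe set whose only gene symbol in the platform annotation was one of these was taken, which gave 24 of the 45101 probe sets on the array, or of the 34945 with a single symbol, which cover 18193 genes. The cells were bone marrow macrophages of C57BL/6 mice, either wild type (WT, 3 arrays) or carrying a knockin (KI, 3 arrays). The series title places the knockin at the IVVY motif of RANK, the receptor for RANKL; the altered residues and the age of the mice are not stated in the labels. Both genotypes received 44 ng/ml M-CSF together with 100 ng/ml RANKL for 24 hours, so no comparison with unstimulated cells was made. The labels do not say whether the 3 replicates of a genotype came from separate animals, and p-values measure the spread between these samples, which may be technical.

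Blimp1 is a zinc finger repressor that RANKL induces in osteoclast precursors, where it silences genes that hold differentiation back, Bcl6 among them. Bcl6 is a BTB zinc finger repressor that works through the corepressors BCOR, NCOR and SMRT and is known to act on Nfatc1, Ctsk and Dcstamp, and in B cells Bcl6 and Blimp1 repress each other. Bach1 and Bach2 are BTB leucine zipper repressors that pair with small Maf proteins. Bach1 silences haem and oxidative stress genes until haem releases it, and Bach2 represses Prdm1 in B cells. Zeb1 and Zeb2 are zinc finger and homeodomain repressors that bind E-boxes and recruit CtBP, and Zbtb46 is a BTB zinc finger factor of classical dendritic cells and endothelium.

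Promoter windows from RefSeq (build GRCm38.p6, 250 bases before to 50 after a transcript start) were found for 7 of the 8 genes, with 12 windows in all. Of these, 4 are shown as examples, each with letters that one of the repressors is known to bind, set in capitals. Other windows, those of Bcor and Zbtb46 among them, also hold such letters and are not shown. The Prdm1 window (chr10:44458699-44458998, minus strand) has the Zeb E-box CACCTG on its reverse strand, with its first base at position -87 from the transcript start. The Bcl6 window (chr16:23981234-23981533, minus strand) has the Bcl6 letters TTCCTNGAA at position -168. Another Bcl6 window (chr16:23988803-23989102, minus strand), not shown, lacks these letters. The Zeb2 window (chr2:45113230-45113529, minus strand) and the Bach2 window (chr4:32417185-32417484, plus strand) have the Blimp1 core AGNGAAAG on their reverse strand, at positions -183 and -18.
Prdm1: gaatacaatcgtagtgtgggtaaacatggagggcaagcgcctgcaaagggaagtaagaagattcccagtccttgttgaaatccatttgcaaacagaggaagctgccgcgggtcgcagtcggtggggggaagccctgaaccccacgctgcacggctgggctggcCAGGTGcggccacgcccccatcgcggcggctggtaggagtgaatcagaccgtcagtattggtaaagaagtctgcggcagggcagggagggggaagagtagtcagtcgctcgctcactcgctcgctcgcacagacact
Bcl6: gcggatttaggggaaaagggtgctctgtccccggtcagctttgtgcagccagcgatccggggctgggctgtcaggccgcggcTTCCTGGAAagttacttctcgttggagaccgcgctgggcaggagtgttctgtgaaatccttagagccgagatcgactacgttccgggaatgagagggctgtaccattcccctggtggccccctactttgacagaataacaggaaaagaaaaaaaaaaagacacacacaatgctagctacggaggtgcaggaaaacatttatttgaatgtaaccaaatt
Zeb2: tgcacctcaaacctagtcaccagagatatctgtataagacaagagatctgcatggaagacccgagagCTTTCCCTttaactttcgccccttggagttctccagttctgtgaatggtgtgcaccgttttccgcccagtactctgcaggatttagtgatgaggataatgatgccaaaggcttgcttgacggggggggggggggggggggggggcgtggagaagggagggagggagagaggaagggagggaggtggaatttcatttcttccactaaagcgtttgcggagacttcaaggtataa
Bach2: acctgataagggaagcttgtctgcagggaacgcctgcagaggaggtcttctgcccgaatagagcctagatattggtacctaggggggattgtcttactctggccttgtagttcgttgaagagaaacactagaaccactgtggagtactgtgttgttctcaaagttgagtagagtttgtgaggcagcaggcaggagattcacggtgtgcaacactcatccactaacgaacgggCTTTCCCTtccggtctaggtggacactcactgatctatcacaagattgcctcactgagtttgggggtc

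Both strands were searched. AGNGAAAG, which resembles the element that interferon regulatory factors bind, was in windows of Zeb2, Bach2 and Bcor and in 8.63% of all 32851 windows. TTCCTNGAA, a case of the STAT letters TTCNNNGAA, was in 1 of the 12 windows and in 1.59% of all. TTCNNNGAA itself was in windows of Bcl6, Zeb2, Bach2 and Bcor and in 8.3% of all. CACCTG was in the Prdm1 and Zbtb46 windows and in 20.2% of all, and the Bach element TGACNNNGC was in 0 of the 12 and in 12.4% of all. These matches describe the letters of the windows.

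The repressors split between directions in KI cells. Prdm1, Zeb1, Bach2 and Bcor were lower than in WT cells, and Bcl6, Bach1 and Zeb2 were higher on the deposited scale, on the probe sets that passed the test. Of the 24 probe sets, 18 passed the filter on low values, set at the median of all probe sets (an intensity near 84.7), and were tested. By limma, with p-values adjusted over all 22518 tested probe sets by the Benjamini-Hochberg method and a threshold of 0.05, 7 were higher, 7 lower and 4 did not pass. The share called was 77.8%, against 44.9% of all tested probe sets (19.3% higher and 25.6% lower), so a large part of the array differed between the genotypes. The WT and KI arrays did not overlap for 15 of the 18, against 60.9% of all tested. The median absolute log2 difference was 0.58, against 0.27 for all tested. At least 2-fold differences were called for 3 probe sets, against 8.15% of all. The calls depended on the filter and on single arrays: 6 of the 14 remained without the filter, 7 without WT 2 and 7 without KI 3. The calls for Prdm1, for 3 Zeb1 probe sets, for the brighter Bcl6 probe set and for the brighter Bach1 probe set were among those that remained in each of these. With WT 1 and KI 1 both left out all 14 remained, and 3 more probe sets passed.

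**Figure D1:**
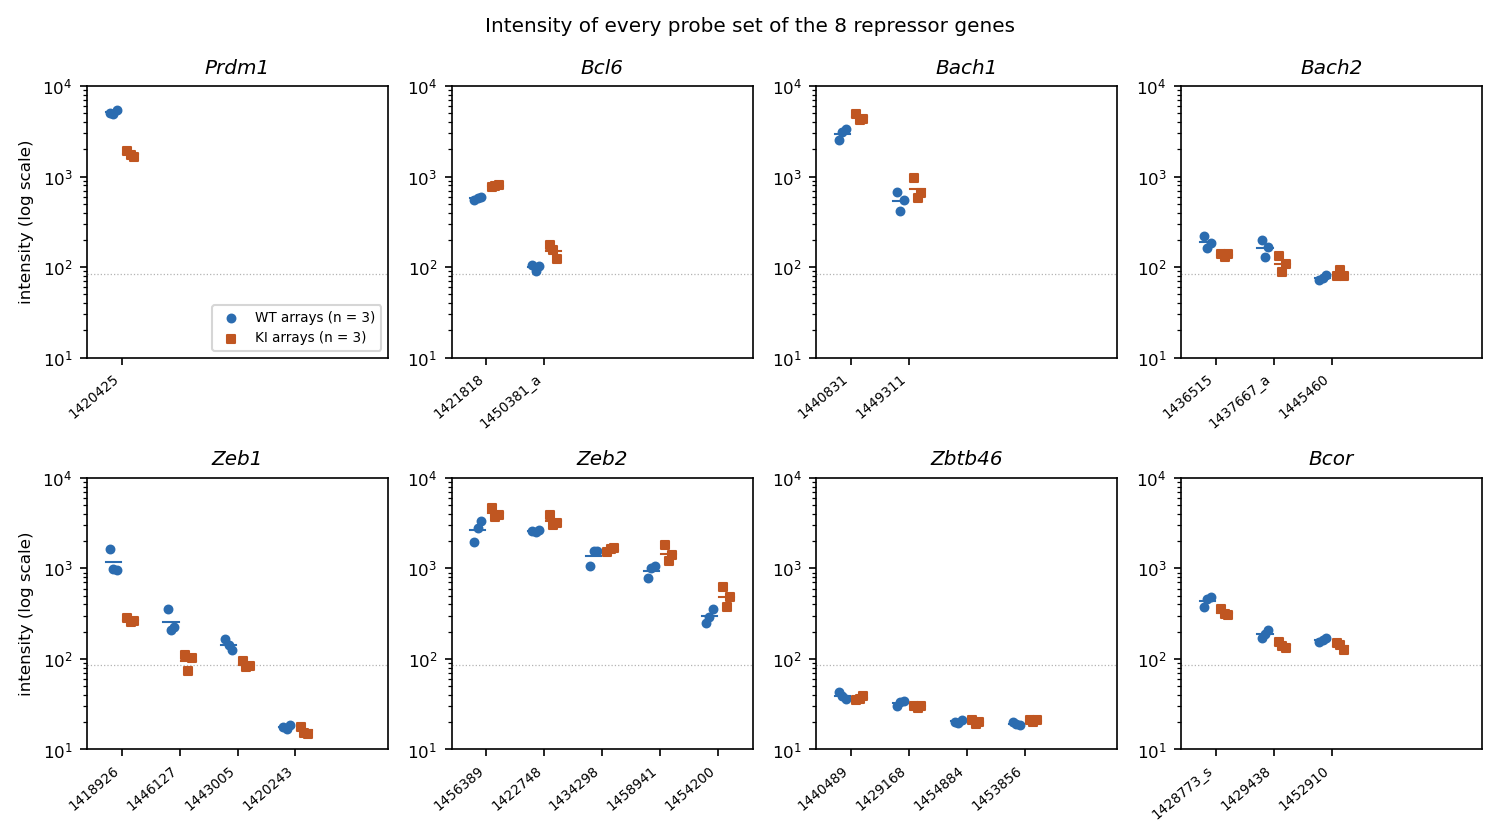
Intensity (log axis) of all 24 probe sets of the 8 genes on the 3 WT arrays (blue circles) and 3 KI arrays (orange squares), with a bar at each geometric mean and a dotted line at the filter, near 84.7; numbers below are probe set names without their ending. The Prdm1 and upper Zeb1 probe sets are lower on all KI arrays, and all 4 Zbtb46 probe sets lie below the line.

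Prdm1 had 1 probe set, 1420425_at. Its intensity was 5089, 4915 and 5447 on the WT arrays and 1891, 1715 and 1659 on the KI arrays. Each KI array was below every WT array, and the arrays of a genotype lay close together. The mean was 5150 ± 271 (SD, n = 3) in WT and 1755 ± 121 (SD, n = 3) in KI, a 2.94-fold lower level and a log2 difference of -1.55 (SE 0.08, limma adjusted p = 0.00020). Of the 22518 tested probe sets, 0.826% had a difference as low or lower. This call held in each of the 20 alternative settings, with a difference between -1.46 and -2.08.

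Bcl6, with TTCCTNGAA in the promoter window shown above but not in another, had 2 probe sets, both higher in KI cells on the deposited scale. Older spike-in scaling, described below, turned the brighter to -0.08 and left the dimmer at 0.06. On the brighter, 1421818_at, the intensity was 548, 578 and 600.2 in WT and 769, 785 and 808 in KI. The genotypes did not overlap, and the log2 difference was 0.45 (SE 0.08, limma adjusted p = 0.0044). The dimmer probe set, 1450381_a_at, read 105, 90.6 and 102 in WT and 176, 152 and 124 in KI. KI 3 was the lowest KI array there but stayed above WT 1, the highest WT array. The log2 difference was 0.59 (SE 0.14, limma adjusted p = 0.016), and this call ended without WT 2 (0.52, adjusted p = 0.053) and when no filter was applied (0.053). Scaling to the spike-ins ended both calls (adjusted p = 0.064 for the brighter and 0.068 for the dimmer).

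The ratio of Prdm1 to Bcl6 within an array is unchanged by scaling that multiplies a whole array by a single factor. Other normalization can change the ratio: KI differed from WT by -2.01 on the log2 scale as deposited and by -2.02 under quantile normalization. Relative to the WT mean, the log2 ratio as deposited was 0.05, -0.07 and 0.02 on the WT arrays and -1.86, -2.03 and -2.12 on the KI arrays. The groups were far apart beside their spread (SD 0.07 in WT and 0.13 in KI). The ratio was 4.02-fold lower in KI cells, and 4.42-fold lower with the dimmer Bcl6 probe set. A two-sided exact permutation test over the 6 arrays gave p = 0.1, the smallest that 3 arrays against 3 allow. Prdm1 was lower and Bcl6 higher without overlap, so the separation of the ratio and this p follow from the values of each gene. They add no support beyond those values. A lower ratio shows that the genes changed unequally, and not that either stayed the same.

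**Figure D2:**
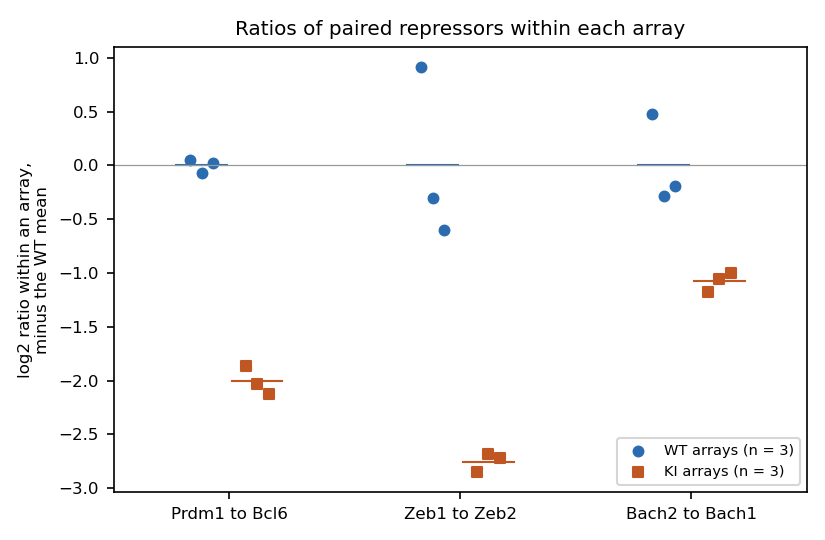
Log2 ratio of 2 genes on each array, minus the mean of the 3 WT arrays, for Prdm1 to Bcl6, Zeb1 to Zeb2 and Bach2 to Bach1 (brightest probe set of each; blue circles WT, orange squares KI, bars are means of 3 arrays). The KI arrays lie below the WT arrays in each ratio, at about -2.01, -2.75 and -1.08, and WT 1 lies above WT 2 and WT 3 in the last 2.

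Zeb1 had 4 probe sets, of which 3 fell and 1 lay below the filter. On 1418926_at the intensity was 1638, 998 and 968 in WT and 282, 257 and 261 in KI. WT 1 stood above the other WT arrays, the KI arrays were nearly level, and the genotypes did not overlap. The log2 difference was -2.13 (SE 0.20, limma adjusted p = 0.00080), a 4.38-fold lower level, and 0.195% of tested probe sets had one as low or lower. Probe set 1446127_at read 353, 209 and 224 in WT and 112, 72.7 and 102 in KI, a log2 difference of -1.44 (SE 0.24, limma adjusted p = 0.0044). Probe set 1443005_at read 166, 144 and 125 in WT and 94.3, 82.5 and 84.1 in KI, a log2 difference of -0.73 (SE 0.12, limma adjusted p = 0.0044). These 3 probe sets share the order of the genotypes but not the size of the difference. The last, 1420243_at, had mean intensities of 17.8 in WT and 15.8 in KI, next to the floor of 16. The 3 calls held in every setting in which the probe sets were tested, with differences of -1.88 to -2.66 on the first. Zeb1 is also a gene of stromal cells. The summed intensity of 7 stromal markers was 8940, 5561 and 2749 on the WT arrays and 10064, 2615 and 8772 on the KI arrays, a sum to which Col1a2 contributed most and which overlapped between the genotypes. Of the 5 stromal markers tested, 4 did not pass. The remaining one, the proteoglycan gene Dcn, was lower with Zeb1, at 196, 162 and 142 in WT and 62.5, 63.5 and 57.0 in KI (log2 difference -1.44, SE 0.13, limma adjusted p = 0.000710). The part of stromal cells in the Zeb1 difference was not tested. In bulk RNA, fewer cells of a type and less RNA per cell cannot be told apart.

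Zeb2, the paralogue of Zeb1, had 5 probe sets that were all higher on average in KI cells as deposited, although older spike-in scaling turned 2 of them to -0.17 and -0.30. Of the 5, 4 passed the test. On the brightest, 1456389_at, the intensity was 1970, 2793 and 3331 in WT and 4599, 3730 and 3895 in KI. WT 1 was the lowest array and KI 1 the highest, and the genotypes did not overlap. The log2 difference was 0.62 (SE 0.19, limma adjusted p = 0.036). Probe set 1422748_at read 2572, 2557 and 2692 in WT and 3912, 2997 and 3183 in KI, a log2 difference of 0.36 (SE 0.11, limma adjusted p = 0.031). Probe set 1458941_at read 791, 1008 and 1052 in WT and 1809, 1207 and 1394 in KI, a log2 difference of 0.62 (SE 0.18, limma adjusted p = 0.027). On these 3 probe sets KI 1 was the highest array. Probe set 1454200_at read 249, 292 and 355 in WT and 625, 374 and 488 in KI, a log2 difference of 0.71 (SE 0.21, limma adjusted p = 0.031). The probe set that did not pass, 1434298_at, read 1052, 1557 and 1577 in WT and 1511, 1648 and 1688 in KI, with overlap and a log2 difference of 0.23 (95% interval -0.15 to 0.62). All 4 calls ended without the filter (adjusted p between 0.079 and 0.11), without WT 2 (0.054 to 0.085) and without KI 3 (0.066 to 0.087). Of the 4, 3 ended without WT 1 (0.052 to 0.068), 3 without KI 1 (0.064 to 0.11), 1 without WT 3 (0.060), 1 without KI 2 (0.057), and 2 under spike-in scaling (0.059 and 0.22). The call for 1456389_at also ended when a number that the sample descriptions carry (the description number) was a covariate (0.11).

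Within arrays, the log2 ratio of Zeb1 to Zeb2 relative to the WT mean was 0.91, -0.31 and -0.60 in WT and -2.85, -2.68 and -2.72 in KI. This ratio and the next were chosen after the values of the genes were seen. In each, the genes differed in opposite directions without overlap. The separation of the ratio and its permutation p were therefore fixed in advance. WT 1 lay farthest from the KI arrays, and the ratio was 6.74-fold lower in KI cells, or 4.91-fold without WT 1 (two-sided exact permutation p = 0.1 with all 6 arrays, the smallest possible). Of the lists examined with it, 8 epithelial genes that Zeb factors are known to repress, Cdh1 among them, gave 0 calls with limma: 2 were tested (0 at an unadjusted p under 0.05) and 6 lay below the filter. Under older spike-in scaling both of the tested genes were lower. Cdh1, which encodes E-cadherin, had mean intensities of 17.96 in WT and 19.9 in KI.

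**Figure D3:**
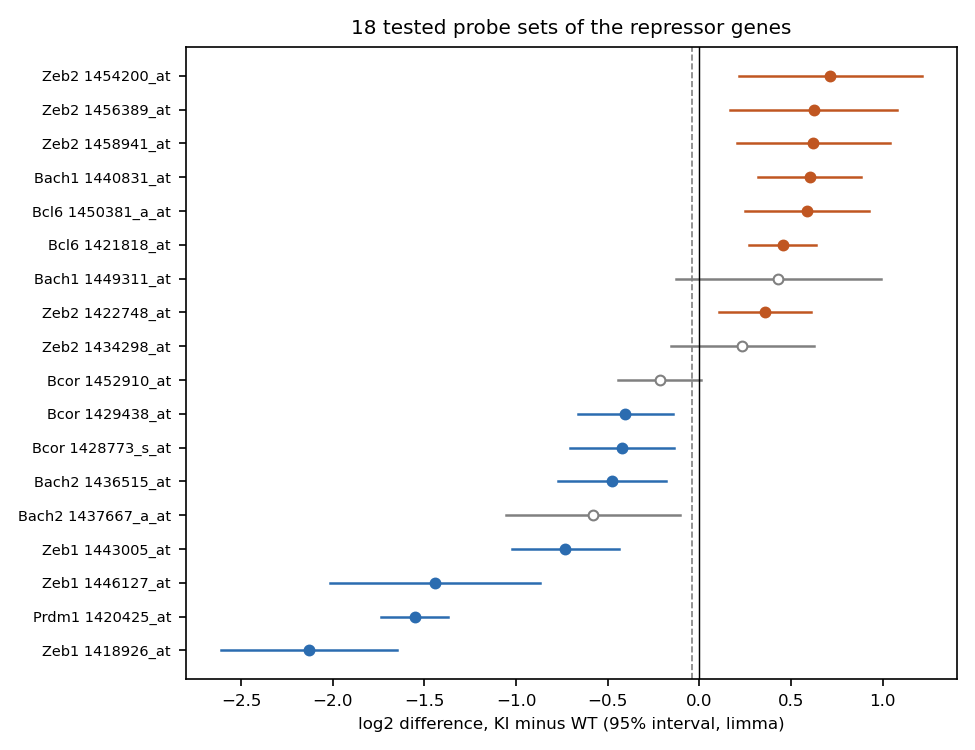
Log2 difference between KI and WT arrays (x axis, points) with the 95% interval from limma (lines) for the 18 tested probe sets, ordered by size. Orange points are higher in KI, blue points lower, and open grey points did not pass; the dashed line is the median of all tested probe sets, -0.04.

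Bach1 was higher in KI cells on 1 of its 2 probe sets, with a difference that shrank to 0.07 under older spike-in scaling (adjusted p = 0.82). On 1440831_at the intensity was 2523, 3119 and 3328 in WT and 4963, 4236 and 4344 in KI. The genotypes did not overlap, and the log2 difference was 0.60 (SE 0.12, limma adjusted p = 0.0077). Probe set 1449311_at, read 667, 420 and 545 in WT and 972, 578 and 665 in KI. Replicate 1 was highest in both genotypes and the groups overlapped, with a log2 difference of 0.43 (95% interval -0.13 to 0.99, limma adjusted p = 0.18). This difference turned to -0.10 under older spike-in scaling. It passed in 3 of 20 alternative settings. These were WT 1 and KI 1 both left out (0.37, adjusted p = 0.046), array weights (0.51, 0.0076) and the replicate number as a block (0.43, 0.044). Whether the 2 probe sets differ was not tested.

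Bach2, whose promoter window holds the Blimp1 core shown above, was lower on 1 of its 2 tested probe sets. On 1436515_at the intensity was 223, 163 and 185 in WT and 139, 130 and 138 in KI, without overlap. The log2 difference was -0.48 (SE 0.12, limma adjusted p = 0.020), and the call ended without KI 2 (-0.44) or KI 3 (-0.49), each with an adjusted p of 0.060, without the filter (adjusted p = 0.059) and with the description number as covariate (-0.44, adjusted p = 0.12). Probe set 1437667_a_at read 199.6, 130 and 166 in WT and 133, 88.8 and 109 in KI, with 1 overlap between WT 2 and KI 1. Its log2 difference was -0.58 (SE 0.20, limma adjusted p = 0.052). It passed in 9 of the 18 alternative settings in which it was tested. Among these were those without WT 2 (-0.74, adjusted p = 0.032) or KI 1 (-0.73, adjusted p = 0.039), and spike-in and older spike-in scaling (0.015 and 0.00020). The last probe set, 1445460_at, lay below the filter, with means of 76.6 in WT and 84.1 in KI. Within arrays, the log2 ratio of Bach2 to Bach1 relative to the WT mean was 0.47, -0.28 and -0.19 in WT and -1.18, -1.05 and -0.996 in KI, 2.11-fold lower (two-sided exact permutation p = 0.1, the smallest possible). As with Zeb1 to Zeb2, this p was fixed in advance by the choice of genes.

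Bcor, the X-linked gene for the BCL6 corepressor, was lower on 2 of its 3 probe sets. On 1428773_s_at the intensity was 376, 456 and 481 in WT and 356, 313 and 307 in KI, with WT 1 close to KI 1. The log2 difference was -0.42 (SE 0.12, limma adjusted p = 0.027). Probe set 1429438_at read 170, 188 and 210 in WT and 155, 140 and 133 in KI, a log2 difference of -0.40 (SE 0.11, limma adjusted p = 0.023). Probe set 1452910_at read 154, 163 and 169 in WT and 150.04, 142 and 127 in KI, a log2 difference of -0.22 (95% interval -0.44 to 0.01). On each of the 3 the KI arrays were below the WT arrays. Both calls ended without the filter (adjusted p = 0.067 and 0.059), without WT 2 (0.082 and 0.062), WT 3 (0.082 and 0.068), KI 2 (0.077 and 0.064) or KI 3 (0.096 and 0.086), and with the description number as covariate (0.19 and 0.16). The X-linked RNA Xist had an intensity between 14300 and 15606 in WT and between 15525 and 15887 in KI (log2 difference 0.08, limma adjusted p = 0.17; -0.12 with spike-in scaling and -0.45 with the older spike-ins), and 3 Y-linked genes had means of 15.8 to 25.1.

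All 4 probe sets of Zbtb46 lay below the filter, with means of 19.3 to 39.5 in WT and 20.3 to 36.9 in KI. The brightest, 1440489_at, read 43.1, 39.2 and 36.1 in WT and 35.0, 36.5 and 39.3 in KI, with overlap. The log2 differences lay between -0.13 and 0.11. Tested without the filter, the 4 had adjusted p between 0.10 and 0.95 by limma. Of 7 markers of dendritic cells, in which Zbtb46 is best known, 4 lay below the filter, and of the 3 tested 0 passed with limma (0 at an unadjusted p under 0.05). Without the filter, or under older spike-in scaling, 1 was lower.

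Genes known to be controlled by these repressors were read from the same fit, each by its brightest probe set. Over all 19 lists, which hold targets, partners, relatives and cell type markers, 58 of 131 tested genes passed, or 44.3%, close to the 44.9% of all tested probe sets. The pooled count therefore does not set the list genes as a whole apart. Single lists varied around it: 3 were higher and 5 lower of 11 tested Bcl6 targets, against 5 and 6 of 35 tested BTB zinc finger genes. Whether any list differs from the array was not tested, and the lists are given by member.

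Among 9 genes downstream of Blimp1 in osteoclast precursors or B cells, 8 had a probe set, 6 were tested, 3 were higher and 1 lower, with a median log2 difference of 0.22, against -0.04 for all tested. The higher genes were Bcl6, Irf8 and Id3. Irf8, a factor that holds NFATc1 in check, read 837, 2040 and 2175 in WT and 5681, 3950 and 4447 in KI, with WT 1 lowest. Its log2 difference was 1.58 (SE 0.36, limma adjusted p = 0.013), and its call ended without the filter (adjusted p = 0.055). Id3, an inhibitor of helix-loop-helix factors, rose by 1.70 (SE 0.53, limma adjusted p = 0.037), a call that ended without WT 2 (1.55, adjusted p = 0.10), WT 3 (1.38, 0.10), KI 2 (1.24, 0.083) or KI 3 (1.82, 0.078), without the filter (0.12) and under spike-in scaling (0.050). Without the filter, or under spike-in scaling, 1 gene of this list was higher. Myc, a growth factor-induced gene that Blimp1 represses in B cells, had fallen, with 4210, 3510 and 3282 in WT and 693, 967 and 808 in KI (log2 difference -2.16, SE 0.15, limma adjusted p = 0.000295). So the list held genes of both directions. The B cell gene Spib lay below the filter, at 51.8 to 146 in WT and 30.3 to 39.8 in KI.

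Of 15 genes listed as Bcl6 targets, 11 were tested, 3 were higher and 5 lower, with a median of -0.03. Those lower included Prdm1 and 3 genes of osteoclast formation. Nfatc1, the main transcription factor of the lineage, read 7800, 6541 and 7065 in WT and 3319, 3852 and 3544 in KI (log2 difference -0.997, SE 0.09). Dcstamp, needed for cell fusion, read 2934, 2119 and 2070 in WT and 850.1, 1261 and 968 in KI (log2 difference -1.21, SE 0.19), and Ctsk, the collagen-digesting cathepsin K, fell by 0.70 on the log2 scale (SE 0.10). Their KI arrays did not overlap with the WT arrays. Those higher were Ccl3, Bcl2l1 and Id2. Ccl3, a chemokine, read 287, 594 and 615 in WT and 2727, 2198 and 2534 in KI (log2 difference 2.39, SE 0.29, limma adjusted p = 0.0016). Bcl2l1, an anti-apoptotic gene, rose by 1.41 (SE 0.13, limma adjusted p = 0.00072). Id2 rose by 0.70 (SE 0.20, limma adjusted p = 0.026), a call that ended without the filter (adjusted p = 0.082), under spike-in scaling (0.10), and without WT 2 (0.68, 0.073), WT 3 (0.64, 0.073), KI 2 (0.54, 0.062) or KI 3 (0.66, 0.085). With WT 1 and KI 1 both left out, 5 genes of this list were higher and 5 lower. Irf4, which Bcl6 represses in B cells, lay below the filter, at 44.0 to 74.3 in WT and 101 to 167 in KI.

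**Figure D4:**
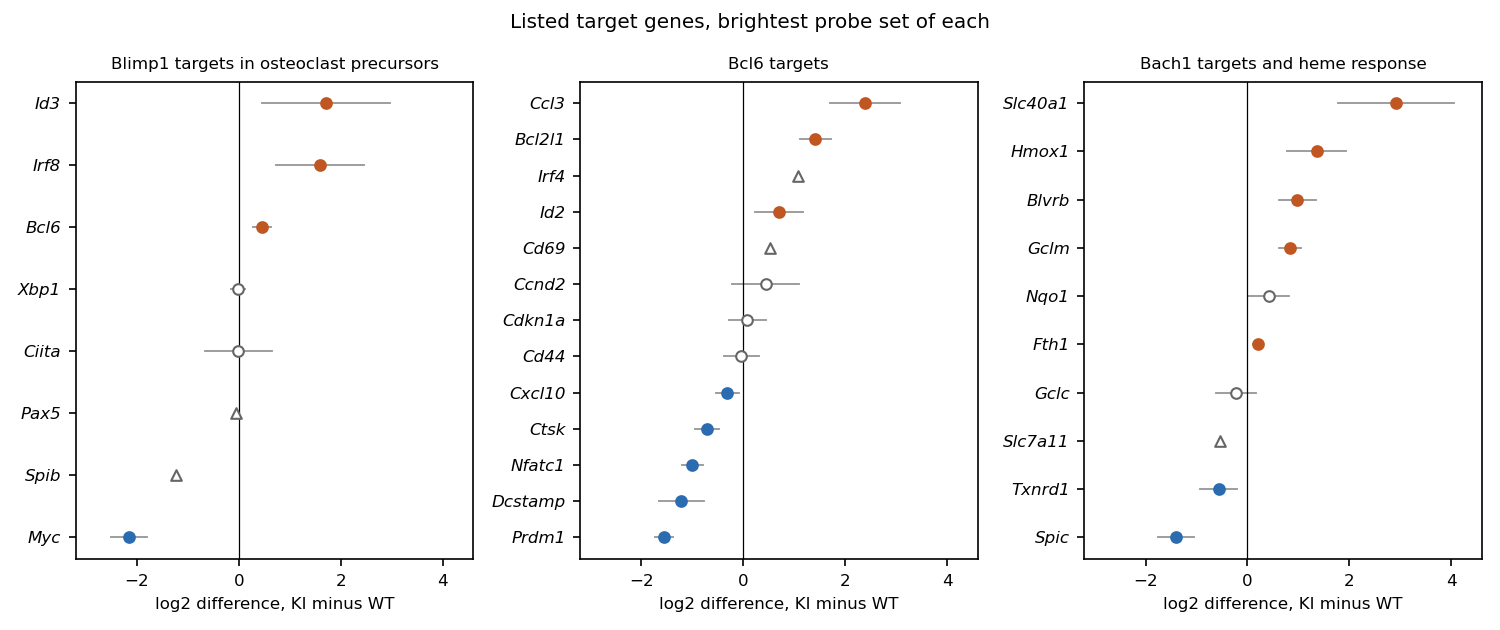
Log2 difference between KI and WT (x axis) of the genes listed for Blimp1, Bcl6 and Bach1, with the 95% interval from limma for tested genes. Orange points are higher and blue points lower, open circles did not pass, and open triangles lay below the filter; the lists hold genes of both directions, from -2.16 for Myc to 2.91 for Slc40a1.

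Among 11 genes of the Bach1 and haem response, 9 were tested, 5 were higher and 2 lower, with a median of 0.42. Slc40a1, the iron exporter ferroportin, read 243, 775 and 919 in WT and 5141, 3468 and 4161 in KI (log2 difference 2.91, SE 0.48, limma adjusted p = 0.0042). Hmox1, the haem-degrading oxygenase and the best known Bach1 target, read 938, 1774 and 1754 in WT and 3291, 3876 and 3844 in KI (log2 difference 1.36, SE 0.25, limma adjusted p = 0.0058). WT 1 was the lowest array for both. Blvrb, a biliverdin reductase, rose by 0.98 (SE 0.15), and Gclm, a subunit of the enzyme that starts glutathione synthesis, by 0.83 (SE 0.09). Fth1, the ferritin heavy chain, rose by 0.20 (SE 0.04, limma adjusted p = 0.0099) as deposited, but differed by -0.0026 with spike-in scaling and -0.33 with the older spike-ins; its call also ended without the intensity trend (adjusted p = 0.056). Those lower were Spic, a transcription factor of haem-handling macrophages, with 668, 820 and 850 in WT and 349, 274 and 261 in KI (log2 difference -1.41, SE 0.15), and the thioredoxin reductase gene Txnrd1 (-0.56, SE 0.15, limma adjusted p = 0.023). The call for Txnrd1 ended without KI 1 (-0.48, adjusted p = 0.071), KI 3 (-0.50, 0.080) or the filter (0.078), which left 1 gene of the list lower without either array. Spic, Txnrd1 and Fth1 were read from probe sets that can detect several transcripts. With such probe sets left out, 4 genes of this list were higher and 0 lower. As deposited, Bach1 was higher, as were Hmox1 and Slc40a1, which it is known to repress. Spic and Txnrd1 of the same list were lower. Slc7a11 lay below the filter, at 58.0 to 67.9 in WT and 37.6 to 47.1 in KI. Under older spike-in scaling 2 genes of this list were higher and 3 lower. With the description number as covariate the calls for Hmox1 (adjusted p = 0.056), Fth1 (0.056) and Txnrd1 (0.068) ended, as did those for Irf8 (0.060), Id3 (0.23) and Id2 (0.23), and 3 genes of the Bach1 list were higher and 1 lower.

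The partners of the repressors moved in both directions. Of 6 small Maf and NRF2 genes, Nfe2l2, which encodes the activator that competes with Bach1, rose by 0.96 (SE 0.12, limma adjusted p = 0.0018). Maff fell by 0.84 (SE 0.10, adjusted p = 0.0015), Nfe2l1 fell by 0.44 (SE 0.10, adjusted p = 0.013), and 3 did not pass; without WT 1, 2 were higher. Under older spike-in scaling the calls for Nfe2l2 (0.43, adjusted p = 0.14), Gclm (0.30, 0.32) and Blvrb (0.45, 0.12) ended. Of 9 partners of Blimp1, 3 fell, 1 rose and 5 did not pass. The arginine methyltransferase gene Prmt5 fell by 1.12 (SE 0.15, limma adjusted p = 0.0022), the deacetylase gene Hdac2 by 1.04 (SE 0.13, adjusted p = 0.0019) and the corepressor gene Tle1 by 0.57 (SE 0.08, adjusted p = 0.0027). Its relative Tle3 rose by 1.23 (SE 0.23, adjusted p = 0.0065). Of 7 BCOR complex subunits with a probe set, 2 were higher. The ubiquitin ligase gene Rnf2 differed by 0.48 (SE 0.10, adjusted p = 0.0081), and by -0.05 under older spike-in scaling. That count was 1 higher without WT 2, KI 2 or KI 3, and 1 was also lower without WT 3. Under spike-in scaling, 1 subunit was higher and 2 were lower. Of 5 NCOR complex genes 1 passed, Sin3a, which fell by 0.36 (SE 0.07, adjusted p = 0.0065) but did not pass with the covariate (0.059). Of 6 tested Zeb corepressors and regulators, 2 were higher and 1 lower, the lower being Ctbp2 (-0.43, SE 0.09, adjusted p = 0.010). The count of those higher was 1 without WT 2, WT 3, KI 1 or KI 2 and 0 without KI 3, and under older spike-in scaling 0 were higher and 2 lower.

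Relatives of the members showed no common direction. Of 8 tested PRDM genes other than Prdm1, 1 was lower, and that call ended without KI 1 or KI 3; 4 were lower under spike-in scaling. Of 35 tested BTB zinc finger genes other than Bcl6 and Zbtb46, 5 were higher, 6 lower and 24 did not pass, with a median of -0.08; 3 were lower without KI 1, KI 2 or KI 3. Zbtb34 rose by 0.95 (SE 0.13, adjusted p = 0.0026), while Zbtb12 (-0.81, SE 0.12), Zbtb41 (-0.57, SE 0.09) and Zbtb11 (-0.56, SE 0.09) fell. With spike-in scaling 15 of them were lower and 3 higher. The older spike-ins left 20 lower and none higher, and there Zbtb34 differed by 0.42 (adjusted p = 0.18).

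The genes whose pattern over the 6 arrays lay nearest to that of Prdm1 were Pde2a, Grk3 and Birc2. The measure was the root mean square difference of log2 values centred on each gene's own mean, which was 0.04, 0.05 and 0.05, over 19489 tested single-gene probe sets. Their log2 differences were -1.59, -1.63 and -1.53. For Bcl6 the nearest were Rbm43 (0.01), Sowahc (0.02) and Capzb (0.02), with log2 differences of 0.46, 0.43 and 0.45. These genes were picked for likeness over all 6 arrays, so differences near those of Prdm1 and Bcl6 follow from the choice. Older spike-in scaling shifts all probe sets by the same amount, which took the differences of Rbm43, Sowahc and Capzb to -0.07, -0.10 and -0.08.

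The labelled cell type was checked with markers. All 8 macrophage markers were tested and higher in KI cells as deposited (5 of 8 with spike-in scaling or without the filter, 3 with the older spike-ins), with Fcgr1 at 1505 to 3414 in WT and 7055 to 8321 in KI, and Csf1r, the M-CSF receptor, at 24558 to 28619 in WT and 31177 to 32381 in KI. Of 8 osteoclast markers 6 were lower, with Mmp9 at 13757 to 15125 in WT and 1650.2 to 2356 in KI. The summed macrophage markers ranged from 90761 to 111246 in WT and from 135581 to 141077 in KI, and the summed osteoclast markers from 63884 to 73095 and from 29318 to 32591. Both lists thus moved with the genotype as deposited, as did each member except Zbtb46, which lay below the filter. Their part in the members' differences was not tested. Of 9 B and plasma cell markers, for the lineage in which Blimp1, Bcl6 and Bach2 are best known, 6 lay below the filter, with Cd79a at 42.7 in WT and 42.5 in KI, and 1 was lower. That gene, Sdc1, is also expressed outside plasma cells, and 1 was also higher without WT 3. Their sum ranged from 2910 to 3842 in WT and from 1772 to 2210 in KI, most of it Sdc1. Of 7 T cell markers 1 was higher, which ended without WT 2, KI 2 or KI 3 and under spike-in scaling, with sums of 1145 to 2223 and 2422 to 3823. Of 7 stromal markers 1 was lower, and of 6 endothelial markers, of which 5 lay below the filter, 1 was lower; endothelial sums were 609 to 780 in WT and 505 to 534 in KI.

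The scale of the arrays bears on the members that were higher. Scaling the arrays to the hybridisation spike-ins moved the median log2 difference of all tested probe sets from -0.04 to -0.25, and the older set of probe sets that detect these spike-ins (older spike-in scaling) gave -0.57. The older set was uneven within WT, with mean log2 values of 10.40, 10.84 and 10.24, against 11.14, 11.28 and 11.26 for the other set. Under older spike-in scaling the SE of Prdm1 was 0.27, against 0.08 as deposited. The parts of this spread and of the shift in the calls that ended were not tested. Of the member probe sets, 7 were higher and 7 lower as deposited. With spike-in scaling 3 were higher and 9 lower, and the older spike-ins left 9 lower and none higher. The 7 calls for Prdm1, Zeb1, Bach2 and Bcor that were lower as deposited remained lower and past the threshold under both. Relative to the median of all tested probe sets, which such scaling moves by the same amount, the brightest probe sets of Bcl6, Bach1 and Zeb2 lay 0.49, 0.64 and 0.66 above it in each case, and those of Prdm1, Zeb1, Bach2 and Bcor lay at -1.51, -2.09, -0.44 and -0.38.

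**Figure D5:**
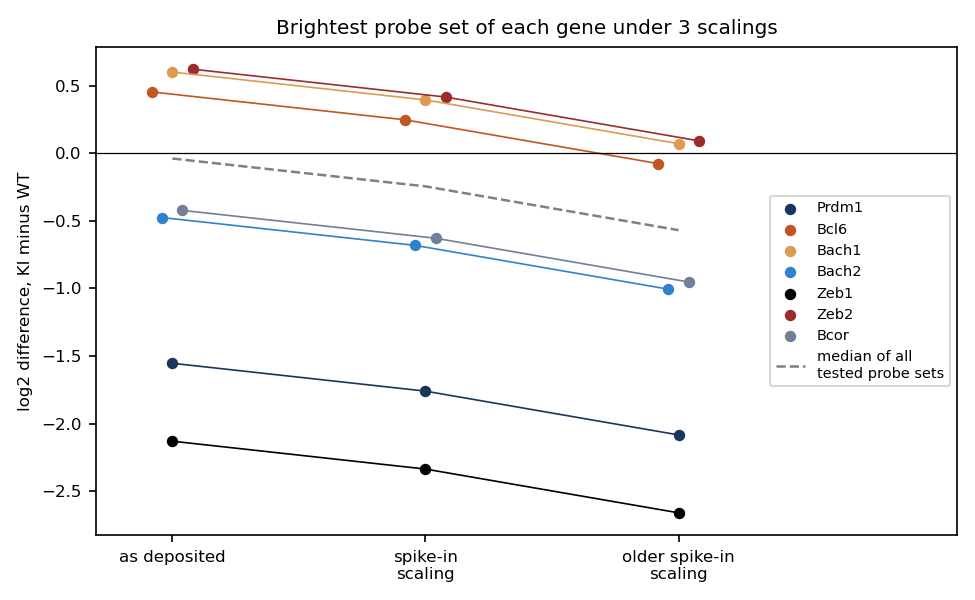
Log2 difference between KI and WT (y axis) for the brightest probe set of 7 genes under 3 scalings of the arrays (x axis), with the median of all tested probe sets as a dashed line. All fall together, so that Bcl6 moves from 0.45 to -0.08 while staying above the dashed line, and Zeb1 from -2.13 to -2.66.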

How the data were processed

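RNA of 3 WT and 3 KI samples was hybridised to Affymetrix mouse arrays. Affymetrix Expression Console produced the values, per the submitters' processing notes; how it summarised and normalized them is not given in the sources used here. Its deposited table holds 1 linear intensity for each probe set and array, and the medians of the 6 arrays (83.0 to 84.8) were close, so the values were taken as normalized between arrays. Intensities were floored at 16 and log2 transformed; 64 control probe sets were left out, and probe sets with a mean log2 above the median were tested (22518). The comparison of KI with WT used limma (version 3.58.1, under R 4.3.3), with lmFit, eBayes with an intensity trend and Benjamini-Hochberg adjustment. Alternatives changed the filter, scaling, log offset, variance model, covariates and arrays used. A fold is the antilog of the log2 difference on the floored scale. The steps were tested on simulated data.

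Symbols came from the platform annotation (34945 probe sets with 1 symbol, 932 with several, 9160 with none) and were updated by gene identifier for 34741 of them (assembly GRCm38.p6). List genes were taken by their brightest probe set; 16 of 191 had no probe set paired with them alone. Named were every member probe set, up to 4 genes of each list with the smallest p, any gene of the target and sex-linked lists, and the 3 genes nearest Prdm1 and Bcl6; Cdh1, Csf1r and Cd79a are further examples chosen after their values were seen. The members, lists and alternatives were chosen with earlier results of these data known. Having 3 arrays a group limits precision.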

Additional observations from a re-analysis of the deposited data

How the results depend on the processing

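Over the 20 alternatives, member probe sets kept their direction and side of the threshold in 283 comparisons, lost a call in 54, gained one in 16 and turned in 4; all 4 turns came under older spike-in scaling (Bcl6 1421818_at -0.077, Bach1 1449311_at -0.10, Zeb2 1422748_at -0.17 and 1434298_at -0.30). The calls for Prdm1 and for 3 Zeb1 probe sets held wherever they were tested. Of member probe sets, 6 passed without the filter (2 higher, 4 lower), 9 with the filter at the top 30% (3 lower, since fewer were tested), and 9 under older spike-in scaling (0 higher); 3 were higher under spike-in scaling, and 4 lower with the description number as covariate. Leaving out 1 array gave 7 to 12 calls, 2 to 6 higher and 4 to 8 lower. Of all probe sets, 9011 were lower and 2546 higher with spike-in scaling, 10586 and 728 with the older spike-ins, and 6481 passed with the covariate (2844 and 3637). Of list genes, 45 were lower and 19 higher with spike-in scaling, 56 and 11 with the older spike-ins, and 37 passed with the covariate, 15 of them higher.

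The labels do not say whether the replicate numbers pair the samples. Deviations from the group means correlated at -0.40, -0.29 and -0.30 between arrays of the same number. These values show no likeness by number but cannot decide on pairing, since the deviations within a group depend on each other. With the replicate number as a block 6184 probe sets passed (2693 higher, 3491 lower), and 8 of the 14 member calls remained, with 4 member probe sets higher; all 4 Zeb2 calls (adjusted p between 0.074 and 0.092) and both Bcor calls (0.091 and 0.080) ended.

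The log2 ratio of Prdm1 to Bcl6 differed by -2.01, and by -2.14 with the other Bcl6 probe set; leaving out 1 array gave -2.08 to -1.95, -3.05 to -2.30 for Zeb1 to Zeb2 and -1.22 to -0.84 for Bach2 to Bach1. Among named list genes, spike-in scaling turned Fth1 (-0.0026) and Xist (-0.12), and older spike-in scaling Fth1 (-0.33), Xist (-0.45), Rnf2 (-0.049), Rbm43 (-0.071), Sowahc (-0.10) and Capzb (-0.085). These turns follow from the shift of all probe sets that each scaling makes. The cause of the other changes was not tested.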
